A study of Mus musculus with 135 samples.

Results

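Embryonic stem cells of the mouse strains BXD75 and BXD87 were compared for trimethylation of histone H3 at lysine 4 (H3K4me3). The comparison takes all 67192 peaks of the stem cell count table in the 10 libraries of these strains, out of 135 samples in the whole series. The libraries are BXD75 cell lines A, F, N, Q and Y and BXD87 cell lines C, I, K, M and X, 1 library per cell line. All were derived from embryos at embryonic day 3.5, and the labels do not give the sex or litter of an embryo. BXD75 and BXD87 are recombinant inbred strains, each a fixed mosaic of the genomes of C57BL/6J (B6) and DBA/2J (D2). Stem cells of the founders were profiled as well, with 3 B6 cell lines (139, 146 and 49) and 3 D2 cell lines (173, 203 and 216). Hepatocytes and cardiomyocytes of B6, D2, BXD75 and BXD87 came from female mice of 8 weeks, with 3 libraries of each strain, and are used here for the same strain difference in other cells. All of these libraries used antibody lot 2746331. The labels do not say whether cell lines of 1 strain came from different mothers, so p-values measure the spread between these cell lines.

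H3K4me3 is laid down around active and poised transcription start sites by SET1 and MLL complexes and removed by KDM5 demethylases. In stem cells the mark is broad and strong at CpG-rich promoters, which recruit the writers through CXXC domain proteins, and weaker and more variable at CpG-poor promoters and enhancers. Recombinant inbred strains carry long stretches inherited from 1 founder or the other, so a peak can differ between 2 such strains with its own DNA sequence or with factors encoded elsewhere.

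The mark at pluripotency genes was read first. Of 28 naive pluripotency genes, 23 had a promoter peak in the table. Pou5f1 and Nanog, the other core factors, were among the 5 without one, so the check rests on the rest of the list, at levels of 17.3 CPM (counts per 1 M reads in peaks) at Esrrb to 396 CPM at Sox2 in BXD87. Sox2, a core pluripotency factor, stood at 372 CPM in BXD75 and 396 in BXD87, with a log2 difference (BXD75 minus BXD87, as everywhere below) of -0.09. Klf4, a factor of naive pluripotency, was called higher in BXD75 by 0.21, and none of the 23 was called higher in BXD87. That call was lost without any 1 of BXD75 lines A, F, Q and Y and BXD87 lines M and X, and with an offset for the GC content of peaks in each library.

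The upstream sequences of 8 promoters are shown because they carry the main contrasts between CpG-poor and CpG-rich start sites. Each line holds the 250 bases before a transcription start site inside the peak, 5′ to 3′ on the gene's strand, from RefSeq on GRCm38.p6, and capitals mark CpG (the letters CG, the same on both strands).
Crxos: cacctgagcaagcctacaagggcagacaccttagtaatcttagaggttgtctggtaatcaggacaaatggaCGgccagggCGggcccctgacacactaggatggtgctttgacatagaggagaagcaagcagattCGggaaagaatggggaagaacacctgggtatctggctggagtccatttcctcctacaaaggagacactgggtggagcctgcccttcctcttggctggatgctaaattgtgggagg
H2-Eb1: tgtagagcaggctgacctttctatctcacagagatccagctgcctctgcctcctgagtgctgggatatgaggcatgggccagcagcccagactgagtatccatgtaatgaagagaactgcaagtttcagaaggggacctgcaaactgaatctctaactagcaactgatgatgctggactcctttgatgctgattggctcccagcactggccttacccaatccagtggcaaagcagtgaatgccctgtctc
Nod1: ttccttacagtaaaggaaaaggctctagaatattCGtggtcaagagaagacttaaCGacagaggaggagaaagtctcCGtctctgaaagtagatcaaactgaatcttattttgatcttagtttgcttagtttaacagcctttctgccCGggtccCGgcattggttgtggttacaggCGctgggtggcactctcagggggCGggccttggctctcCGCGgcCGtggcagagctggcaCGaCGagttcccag
Zfp658: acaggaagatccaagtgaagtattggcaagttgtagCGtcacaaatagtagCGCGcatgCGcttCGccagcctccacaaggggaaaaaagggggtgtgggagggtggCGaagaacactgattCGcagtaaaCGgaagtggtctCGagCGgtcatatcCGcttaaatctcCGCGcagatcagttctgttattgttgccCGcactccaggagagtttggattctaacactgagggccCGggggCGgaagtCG
P2ry2: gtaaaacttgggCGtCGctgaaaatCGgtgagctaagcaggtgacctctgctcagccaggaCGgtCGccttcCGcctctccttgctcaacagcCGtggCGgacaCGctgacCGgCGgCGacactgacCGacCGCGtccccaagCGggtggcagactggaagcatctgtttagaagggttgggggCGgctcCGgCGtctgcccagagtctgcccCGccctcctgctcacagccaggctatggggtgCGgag
Peg3: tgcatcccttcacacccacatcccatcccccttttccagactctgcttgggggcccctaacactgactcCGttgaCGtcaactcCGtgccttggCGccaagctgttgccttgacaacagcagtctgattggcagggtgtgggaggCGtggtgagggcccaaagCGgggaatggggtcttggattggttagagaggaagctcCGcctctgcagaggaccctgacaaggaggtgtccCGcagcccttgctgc
Kcnq1ot1: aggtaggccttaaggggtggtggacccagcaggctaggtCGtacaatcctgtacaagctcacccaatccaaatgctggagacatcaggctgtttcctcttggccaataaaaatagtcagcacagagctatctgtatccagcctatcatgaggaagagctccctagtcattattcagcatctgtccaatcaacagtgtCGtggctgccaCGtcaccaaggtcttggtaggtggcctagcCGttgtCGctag
Klf4: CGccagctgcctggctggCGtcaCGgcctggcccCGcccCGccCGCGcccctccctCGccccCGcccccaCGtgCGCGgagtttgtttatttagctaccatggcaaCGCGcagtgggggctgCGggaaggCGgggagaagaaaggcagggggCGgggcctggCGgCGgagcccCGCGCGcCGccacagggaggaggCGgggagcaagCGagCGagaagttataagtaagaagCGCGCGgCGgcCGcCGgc
The windows lie at chr7:15895874-15896123 (Crxos, plus strand), chr17:34305617-34305866 (H2-Eb1, plus), chr6:54972613-54972862 (Nod1, minus), chr7:43562120-43562369 (Zfp658, plus), chr7:101012054-101012303 (P2ry2, minus), chr7:6730420-6730669 (Peg3, minus), chr7:143296548-143296797 (Kcnq1ot1, minus) and chr4:55532476-55532725 (Klf4, minus). They hold 3 CpG at Crxos, 0 at H2-Eb1, 12 at Nod1, 17 at Zfp658, 21 at P2ry2, 8 at Peg3, 5 at Kcnq1ot1 and 32 at Klf4. Over all 32851 RefSeq promoters the median was 6.0 CpG, with quartiles of 2.0 and 16, and 92.1% of promoters held at least 1. Only 7.87% of promoters matched H2-Eb1 in having none, and 4.58% had as many as Klf4 or more. Of 91 genes named here 48 had a RefSeq start in their peak.

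The stem cell peaks of BXD75 and BXD87 differed widely. Of 67192 peaks, 14628 (21.8%) passed the test (edgeR quasi-likelihood F test, Benjamini-Hochberg adjusted p under 0.05), and these are the peaks called changed below. The mark was higher in BXD75 at 6680 peaks (9.94%) and higher in BXD87 at 7948 (11.8%). Most differences were moderate, with a median absolute log2 difference of 0.66 among the calls, while 3375 called peaks differed by more than 2-fold and 836 by more than 4-fold. All 5 libraries of BXD75 lay above the 5 of BXD87 at 5494 peaks (8.18%) and below them at 6594 (9.81%), and 10666 of these peaks were called.

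The called share was smaller at promoter peaks, those within 1 kb of an annotated start site, than elsewhere. Of 18468 promoter peaks 2671 (14.5%) were called, 1588 higher in BXD75 and 1083 higher in BXD87, and 341 of these differed by more than 2-fold. Away from promoters 11957 of 48724 peaks (24.5%) were called, with 5092 higher in BXD75 and 6865 higher in BXD87. By the place of the peak centre the called share was 12.4% in coding exons, 21.1% in introns and 25.7% between genes. The median log2 difference was 0.06 over all promoter peaks and -0.05 over the other peaks.

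Depth was even across the stem cell libraries, with 16.2 to 20.2 M (mega) reads in peaks in BXD75, 15.6 to 20.1 in BXD87, 15.6 to 20.1 in B6 and 13.8 to 19.6 in D2. In a principal component analysis of the 10 libraries the first component held 57.0% of the variance and separated the strains. The second held 17.7% and set BXD75 lines A and Q, at 70.4 and 49.4, apart from lines F, N and Y, at -21.6, -33.7 and -48.4. Lines N and Y of BXD75 were closer to each other than any of the 19 other pairs of cell lines within a strain: their chi-square per peak, which is near 1 for 2 draws from the same library, was 1.14 against 2.07 to 9.16. Repeat libraries of B6 line 49 gave 0.817 to 0.986 and those of D2 line 203 gave 0.856 to 3.52, so the counts do not tell whether N and Y are separate derivations. They were kept as separate cell lines because the labels give them different letters, and with N and Y summed 12790 peaks were called. Without lines A and Q 15464 were called.

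The promoters with the largest differences belonged to genes of varied function, and at several of them 1 strain had nearly no mark. By a fixed rule, 12 promoters in each direction were taken by fold among called autosomal promoter peaks whose libraries did not overlap. Obox6 and Crxos, neighbouring homeobox genes active in the oocyte and early embryo, led in BXD75. Dnajc5b, a co-chaperone gene, Mir147, a microRNA gene, and Nod1, an intracellular receptor for bacterial peptidoglycan, led in BXD87. The plot of 8 leading promoters shows each cell line.

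**Figure D1:**
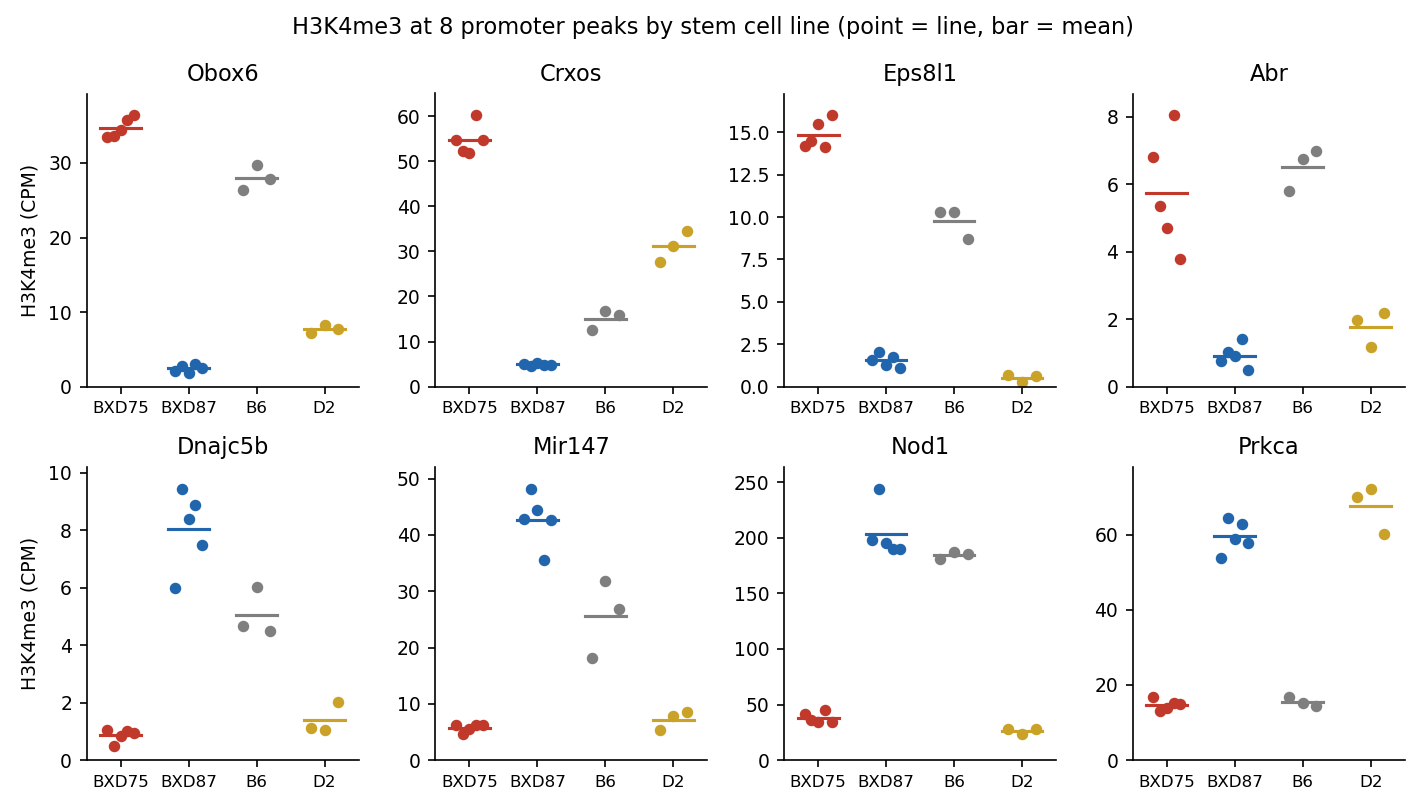
H3K4me3 level (CPM, vertical axis) at 8 promoters with large differences between BXD75 and BXD87 in stem cells of BXD75, BXD87, B6 and D2; each point is a cell line and each bar a mean. At Obox6 the BXD75 lines sit at 33.5 to 36.4 CPM and the BXD87 lines at 1.89 to 3.03, while Nod1 shows the opposite order.

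At the Obox6 promoter peak (chr7:15838111-15841078, mm10) the level was 33.5, 33.6, 34.4, 35.8 and 36.4 CPM in BXD75 lines A, F, N, Q and Y and 2.12, 2.79, 1.89, 3.03 and 2.46 CPM in BXD87 lines C, I, K, M and X. The groups did not overlap, and the log2 difference was 3.83 ± 0.11 (SE, edgeR adjusted p = 2.4e-15). The B6 lines averaged 28.0 CPM and the D2 lines 7.73 CPM, so both strains lay outside the founder levels. At the Crxos peak (chr7:15892381-15897501), whose upstream bases are printed above with only 3 CpG, BXD75 lines held 54.7, 52.2, 51.8, 60.2 and 54.6 CPM and BXD87 lines 5.0, 4.69, 5.27, 4.85 and 4.81 CPM. The difference was 3.47 ± 0.10 (edgeR adjusted p = 2.4e-15), and here D2, at 31.1 CPM, lay above B6, at 15.0. Both strains again lay outside the founders, BXD75 above and BXD87 below.

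The peaks next to Obox6 and Crxos were called in the same direction, and some peaks further off in the other. Within 200 kb of Obox6 and Crxos 11 of 24 peaks were called, those of the 2 genes included, beside 21.8% of all peaks. Of the 11, 7 were higher in BXD75 and 4 were higher in BXD87, and 6 differed by more than 2-fold. The 7 were all the peaks in an unbroken stretch from chr7:15838111 to 15923589. The 4 lay from chr7:15981152 onward, with log2 differences of -0.51 to -0.70 and mean levels of at most 9.07 CPM. Crxos has further promoter peaks, at which the difference was 1.98 (22.3 against 5.63 CPM) and 3.44 (27.9 against 2.54 CPM). The pseudogene Ass-ps1 beside them differed by 2.34 and Selenow, a selenoprotein gene, by 0.74 (43.3 against 26.1 CPM). Nop53, a ribosome biogenesis gene in the same window, stood at 85.3 and 83.4 CPM with a difference of 0.03 that did not pass the test. Obox6 and Crxos were the only genes of the two-cell-like list with a measured promoter peak, 2 of 24, so the list as a whole cannot be read from these data.

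Other promoters higher in BXD75 included Eps8l1, an actin regulator related to EPS8, with 14.2, 14.5, 15.5, 14.1 and 16 CPM in BXD75 against 1.55, 2.04, 1.29, 1.72 and 1.12 in BXD87 (log2 3.27 ± 0.17, edgeR adjusted p = 1e-11). An internal promoter of Abr gave 6.81, 5.35, 4.71, 8.04 and 3.78 CPM against 0.774, 1.02, 0.895, 1.41 and 0.504 (log2 2.63). The groups at both genes were fully separate, although BXD75 lines spread widely at Abr. A broad peak over Olfr94, an odorant receptor gene, and Ubd, a ubiquitin-like modifier, held 109 to 121 CPM in BXD75 and 19.4 to 23.4 in BXD87 (log2 2.43), near the B6 range of 104 to 121 and the D2 range of 20.6 to 25.3. Dcdc2b, with a doublecortin domain, differed by 2.01, Efcab8, with EF-hand domains, by 1.74 and the odorant receptor gene Olfr1341 by 1.64. Casp8, an initiator caspase of apoptosis, differed by 1.64, F2rl2, a protease-activated receptor, by 1.61 and Mir3971 by 1.56.

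Among the 12 promoters higher in BXD87, Nod1 (chr6:54950864-54973729) had the largest level, with 41.5, 36.1, 34.7, 45.3 and 33.9 CPM in BXD75 and 198, 244, 195, 190 and 190 in BXD87 (log2 -2.41 ± 0.10, edgeR adjusted p = 1.8e-13). Its BXD87 level was like that of B6 (181 to 187 CPM), and its BXD75 level was nearer to D2 (23.7 to 27.9 CPM). Prkca, the alpha form of protein kinase C, gave 16.7, 13, 13.9, 15.1 and 15.0 CPM in BXD75 and 53.9, 64.3, 58.8, 62.8 and 57.7 in BXD87 (log2 -2.01), and there B6 was low at 14.5 to 16.8 CPM and D2 high at 60.2 to 72.2. At both genes each BXD strain lay close to a different founder, in opposite order.

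Dnajc5b held 1.04, 0.497, 0.841, 1.00 and 0.946 CPM in BXD75 and 5.98, 9.44, 8.40, 8.87 and 7.50 in BXD87 (log2 -3.20). At the peak of Mir147 and its host gene AA467197 the levels were 6.16, 4.69, 5.50, 6.22 and 6.33 CPM against 42.8, 48.2, 44.5, 35.5 and 42.6 (log2 -2.88), above the 18.1 to 31.9 CPM of B6. The groups did not overlap at either peak. Nme4, a mitochondrial nucleoside diphosphate kinase, differed by -2.13, Scara5, a scavenger receptor that takes up ferritin, by -2.04, Cdkl4, a cyclin-dependent kinase-like gene, by -1.93 and Spint5, a serine protease inhibitor gene, by -1.84. Ehf, an epithelial ETS factor, followed with -1.74, Rab44, a small GTPase, with -1.60 and Msc, the bHLH repressor musculin, with -1.56.

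Away from promoters some peaks were present in 1 strain and close to absent in the other. An intronic peak of 5730507C01Rik (chr12:18523041-18524919) held 5.52, 6.18, 5.83, 6.03 and 7.27 CPM in BXD75 and no read in any BXD87 library. B6 lines held 5.96 to 6.26 CPM there and the D2 lines had no read either. A peak between genes nearest to Sox11, a neural transcription factor, held 5.41 to 7.79 CPM in BXD75 and 0.0516 to 0.313 in BXD87 (log2 5.74), and a peak nearest to Fbn1, the fibrillin-1 gene, held 4.86 to 5.44 against 0.0516 to 0.136 CPM (log2 5.78). In the other direction a peak nearest to Celf2, an RNA-binding protein gene, held at most 0.112 CPM in BXD75 and 5.32 to 6.52 in BXD87 (log2 -7.28). An intronic peak of Ndufaf5, an assembly factor of respiratory complex I, held 0.646, 0.607, 0.673, 0.816 and 0.237 CPM in BXD75 against 23.5, 21.7, 14.8, 17.9 and 24.3 in BXD87 (log2 -5.08). Of these 5 peaks Fbn1 was found by the authors on the second genome alone and the other 4 on the reference genome alone.

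The called share was larger among peaks that the authors found on 1 genome alone than among those found on both. Of peaks on both genomes 9219 of 48090 (19.2%) were called, against 2849 of 10216 (27.9%) on the reference genome alone and 2560 of 8886 (28.8%) on the second genome alone. Among reference-only peaks 1937 were higher in BXD75 and 912 in BXD87, and among second-genome-only peaks 688 and 1872. How reads of a strain were assigned to the 2 genomes was not given in the sources used here, so a difference of the mark and a difference in alignment cannot be told apart at such peaks.

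The called share of promoter peaks was largest where CpG around the peak centre was sparsest. In the 1 kb around the peak centre, promoter peaks with 0 to 16 CpG were called in 20.3% of cases, those with 17 to 30 in 17.9%, those with 31 to 57 in 9.78% and those with 58 to 170 in 9.40%. Differences over 2-fold fell more steeply, with 3.75%, 2.66%, 0.577% and 0.264% of the promoters in the same order. Among promoter peaks of middle level the called share was 23.5% in the group with fewest CpG and 10.6% in the group with most, with medians of 22.3 and 22.4 CPM. Peaks away from promoters ran the same way, from 29.6% with the fewest CpG to 16.7% with the most.

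The called share was also larger at repeat-rich peaks. Away from promoters the called share was 19.9%, 22.7%, 24.8% and 30.8% from the lowest to the highest share of soft-masked (repeat) bases, and at promoters it was 11.5%, 11.9%, 15.6% and 18.8%. Library GC response differed between cell lines, from a slope of 0.141 log2 units per 10 points of GC in BXD75 line F and 0.136 in line A to -0.127 in BXD87 line C. With a GC offset for each library 16129 peaks were called, and the part of GC response in the CpG gradient itself was not tested.

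**Figure D2:**
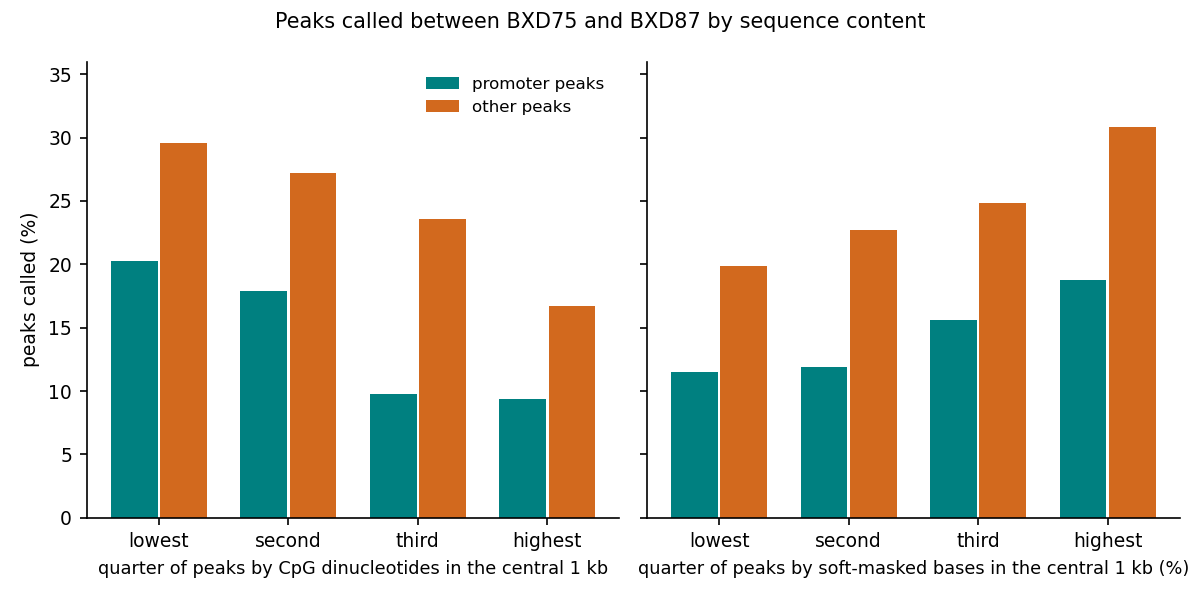
Percent of stem cell peaks called between BXD75 and BXD87 (vertical axis) in 4 groups of peaks from low to high CpG count and from low to high soft-masked share around the peak centre, for promoter peaks and other peaks. The share falls from 20.3% to 9.40% of promoter peaks with rising CpG and rises from 19.9% to 30.8% of other peaks with rising repeat content.

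Founder stem cells gave the direction of a peak's difference in libraries other than those of BXD75 and BXD87. The founder libraries were in the same fit, so both comparisons shared its estimate of the spread between cell lines. That estimate bears on which peaks were called: 14628 in this fit and 17013 with only the BXD75 and BXD87 libraries. The overlap of the calls given here is therefore not an independent check. Between B6 and D2, 20566 peaks (30.6%) were called. Both comparisons called 7598 peaks, 51.9% of those called between the BXD strains and 36.9% of those called between the founders. At 5541 of these (72.9%) the sign was the same, so that BXD75 stood to BXD87 as B6 to D2, and at 2057 it was opposite.

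Founder origin was read from hepatocyte libraries, since genotypes were not used. In each 5 Mb bin, hepatocyte peaks that differed at least 2-fold between B6 and D2 served as markers, 1994 in all, and a strain was called B6-like or D2-like from its position between the founders at the median marker. Of 278 bins with at least 3 markers, 66 had opposite founder types in the strains (35 with BXD75 B6-like, 31 with BXD75 D2-like), 98 had the same type (48 B6-like, 50 D2-like) and 114 were mixed. This stand-in can misplace a bin that holds a recombination.

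The called share of stem cell peaks was larger where the strains had opposite founder types. There 3268 of 10138 peaks (32.2%) were called and 9.92% were called with over 2-fold, against 2666 of 14941 (17.8%) and 2.70% where they had the same type. In bins with B6-like BXD75 and D2-like BXD87, 1109 of 1151 peaks called in both comparisons (96.4%) had the founder sign. With the types exchanged only 157 of 739 (21.2%) had it. Where both strains were of the same type the sign was the founder sign at 486 of 622 peaks (78.1%, both B6-like) and 511 of 645 (79.2%, both D2-like).

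**Figure D3:**
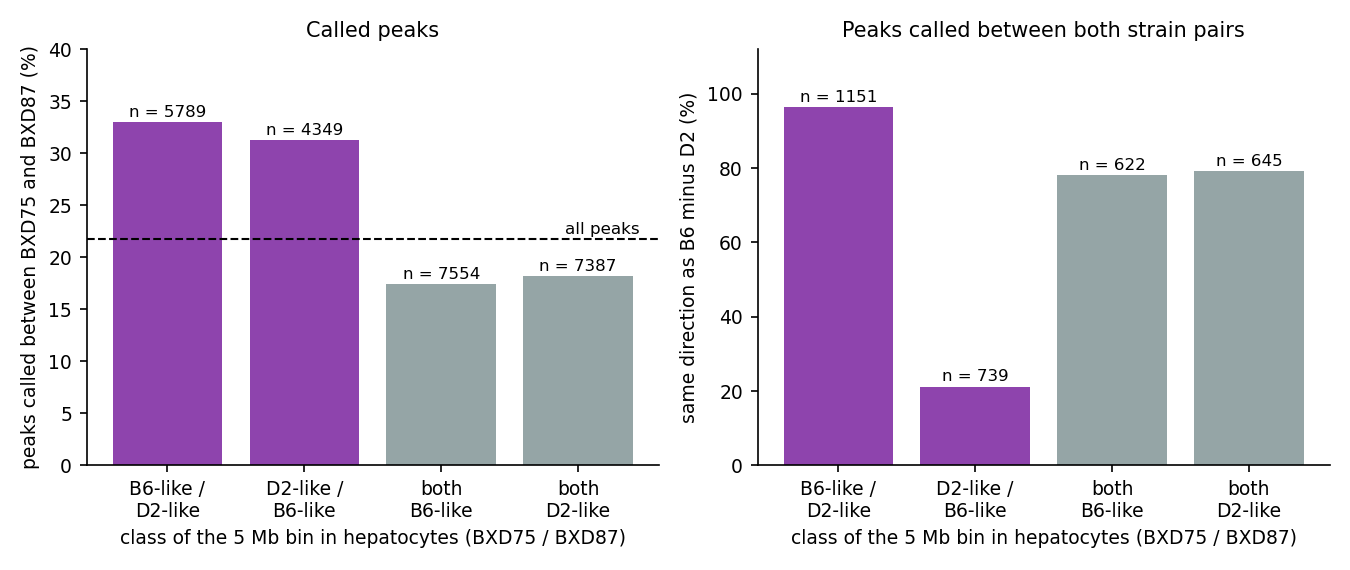
Percent of stem cell peaks called between BXD75 and BXD87, and percent of peaks called in both comparisons with the founder sign, by founder type of the 5 Mb bin as read from hepatocytes. The called share is 33.0% and 31.3% in bins of opposite types and 17.4% and 18.2% in bins of the same type.

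Part of the size of the founder difference was found in the same bins, with a wide spread between peaks. Over founder calls of at least 2-fold, the median ratio of the BXD75 minus BXD87 difference to the B6 minus D2 difference was 0.70 (quartiles 0.39 and 0.97, 801 peaks) with BXD75 B6-like and BXD87 D2-like, and -0.48 (quartiles -0.95 and 0.03, 599 peaks) with the types exchanged. It was 0.10 in each class of the same type (861 and 1072 peaks). Of these founder peaks 75.8%, 67.9%, 31.5% and 30.2% were called between the BXD strains in the same order.

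**Figure D4:**
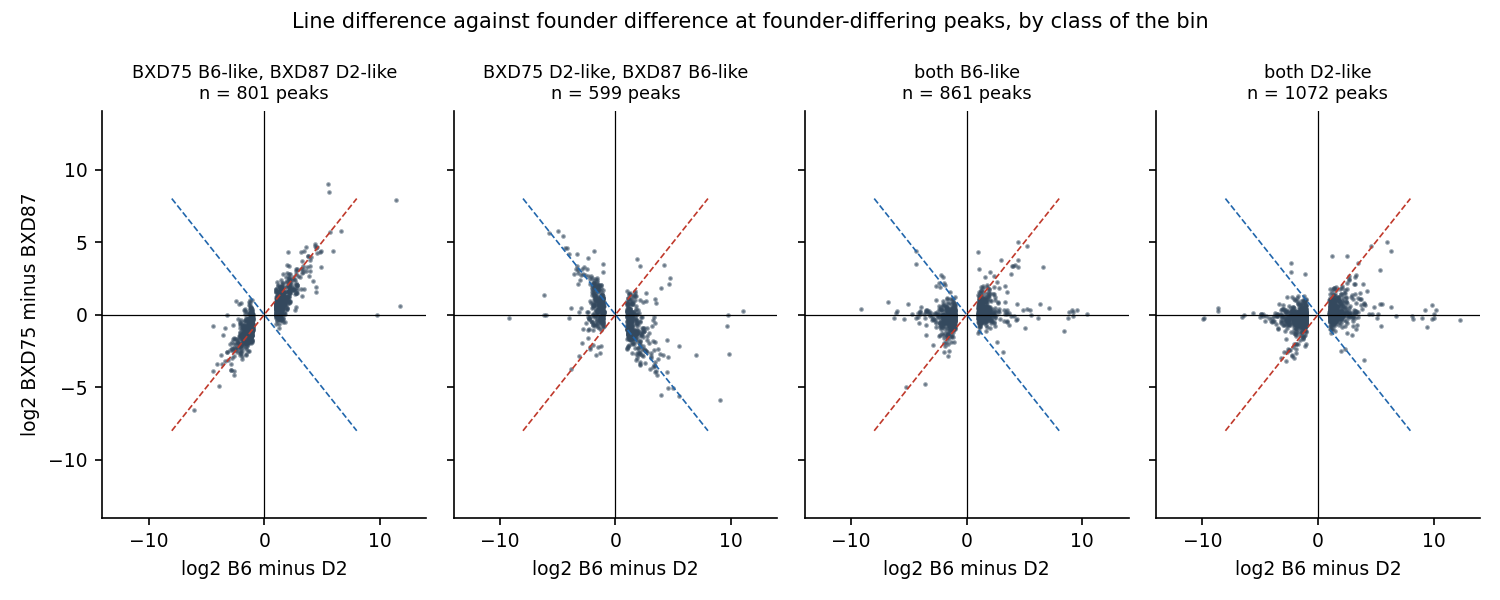
Log2 difference between BXD75 and BXD87 (vertical axis) against the log2 difference between B6 and D2 (horizontal axis) at stem cell peaks in 4 classes of bins; each point is a peak, the red dashed line marks equal and the blue dashed line opposite differences. Points lean toward the equal line but mostly fall short of it where BXD75 is B6-like and BXD87 D2-like (median ratio 0.70, quartiles 0.39 and 0.97). With the types exchanged the median ratio is -0.48 (quartiles -0.95 and 0.03), and where both have the same type it is 0.10.

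Calls were unevenly spread along the genome. Over 378 bins with at least 50 peaks a median of 21.2% of the peaks were called, with a range of 3.57% to 71.7%. The richest bin lay on chromosome 2 from 140 to 145 Mb, where 66 of 92 peaks (71.7%) were called, Ndufaf5 among its genes, and hepatocytes gave D2-like BXD75 and B6-like BXD87. On chromosome 8 from 30 to 35 Mb 68 of 125 peaks (54.4%) were called, with the opposite types. Over the autosomes the share ran from 18.2% on chromosome 11 to 26.0% on chromosome 1.

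Some promoters changed in bins where the strains appeared to share their founder type. By rule the 5 with the largest fold in each direction were taken. Eps8l1 and Efcab8 lie in B6-like bins, as do Fggy, a carbohydrate kinase gene (log2 1.54), Cyp2j9, a cytochrome P450 (1.5), and Pde4d, a cAMP phosphodiesterase (1.45). The types at Eps8l1 and Efcab8 were close to the limit score of 0.5. The Eps8l1 bin had 3 markers, with BXD75 at 1.22 and BXD87 at 0.53, and the Efcab8 bin gave 0.53 and 0.59. At Eps8l1 BXD87 held 1.12 to 2.04 CPM against 8.72 to 10.3 in B6 and 0.286 to 0.688 in D2. Pde4d stood at 8.12 to 10.2 CPM in BXD75, near B6 (6.67 to 9.72) and D2 (8.14 to 12), and at 2.14 to 4.62 in BXD87, below both founders. In the other direction were Scara5, the immunoglobulin segment Ighv1-47 (-1.37), Ppp1r14d, a phosphatase inhibitor gene (-1.26), Platr13, a noncoding RNA gene (-1.18), and Adam32, a membrane protein of the ADAM family (-1.18). Ighv1-47 held 16.8 to 22.2 CPM in BXD87 against 6.46 to 9.61 in BXD75, 6.74 to 14.8 in B6 and 8.26 to 15.9 in D2. Those 2 genes, Pde4d and Ighv1-47, had BXD87 levels outside the range of every founder line and were picked out after their values were seen.

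Imprinted genes, which are expressed from 1 parental allele under the control of germline DNA methylation, were called in 1 direction only. Of 40 genes 35 had a promoter peak, and 12, at 10 peaks, were higher in BXD75, while none was higher in BXD87, beside 14.5% of all promoter peaks called in either direction. Of all 18468 promoter peaks 1588 were called higher in BXD75 and 1083 higher in BXD87, so promoter calls as a whole leaned toward BXD75. The median log2 difference was 0.11 over the 35 genes and 0.06 over all promoter peaks. Fibroblast genes that feeder cells express had a median of 0.15, with 11 of 12 measured members above 0, 1 of them called, and a summed level of 222 to 310 CPM in BXD75 and 207 to 257 in BXD87. Without BXD75 lines A and Q, a setting chosen after seeing the data, the fibroblast median was 0.03. In that setting 10 imprinted genes were called, all higher in BXD75, with a median of 0.12. With a GC offset for each library the fibroblast median was 0.13, and 6 imprinted genes were called, with a median of 0.15. Whether feeder cells bear on the imprinted genes was not tested. The differences of imprinted genes were small, at most 0.52. The called genes were Airn, Igf2r, Peg13, Kcnq1ot1, Peg3 with Usp29, Snrpn, Cdkn1c, Impact, Inpp5f and Peg10 with Sgce, where the genes joined by "with" share a peak.

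Airn, the noncoding RNA antisense to Igf2r, held 37.5, 46.5, 45.4, 34.8 and 43.0 CPM in BXD75 and 32.1, 28.9, 28.8, 28.4 and 26.5 in BXD87 (log2 0.52 ± 0.13, edgeR adjusted p = 0.0046). Kcnq1ot1, the noncoding RNA that silences its neighbours on the paternal allele, held 96.2, 121, 125, 111 and 121 CPM against 74.9, 96.5, 90.4, 85.4 and 74.2 (0.45 ± 0.10, adjusted p = 0.0026), where line A of BXD75 lay just under line I of BXD87. Peg3, a zinc finger gene expressed from the paternal allele, held 80.9, 86.7, 87.6, 87.6 and 87.4 CPM against 61.6, 70.3, 63.9, 64.1 and 59.9 (0.43 ± 0.07, adjusted p = 1.6e-04). Airn and Peg3 did not overlap between the strains and Kcnq1ot1 did.

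Peg13, a noncoding RNA gene, held 34.2, 39.3, 38.5, 36.8 and 37.8 CPM in BXD75 and 27.3, 30.1, 27.7, 26.0 and 24.2 in BXD87 (0.46 ± 0.08, adjusted p = 3.1e-04). At Cdkn1c, an inhibitor of cyclin-dependent kinases on the maternal allele, the difference was 0.37, at Snrpn 0.38 and at Igf2r, the maternally expressed receptor that clears IGF2, 0.30. Impact differed by 0.36 and Inpp5f by 0.30. Peg10 and Sgce, divergent genes of 1 peak, differed by 0.23. Igf2, the growth factor gene, Mest, Gnas, Plagl1 and Slc38a4 gave 0.16, 0.11, 0.06, 0.11 and -0.01 and did not pass the test, and Grb10 and Meg3 gave -0.24 and -0.15. The count of called imprinted genes fell to 7 without BXD75 line F, to 6 without BXD87 line X and to 6 with a GC offset for each library, all still higher in BXD75.

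Histocompatibility genes, some of which present peptides to T cells, were called in both directions. Of 15 measured genes 5 were higher in BXD87, 1 was higher in BXD75 and 9 did not pass the test, beside 14.5% of all promoter peaks called. The median was -0.13, against 0.06 over all promoter peaks. H2-Eb1, a class II beta chain whose upstream window above holds 0 CpG, stood at 41.9, 41.1, 34.0, 49.4 and 38.6 CPM in BXD75 and 90.7, 113, 85.0, 85.4 and 82.0 in BXD87 (log2 -1.15 ± 0.13, edgeR adjusted p = 5.1e-07), with B6 at 26.1 to 29.1 and D2 at 45.5 to 75.9. H2-T23, which encodes the nonclassical class I molecule Qa-1, held 1.99, 1.82, 1.57, 1.76 and 1.06 CPM against 6.09, 5.64, 6.46, 6.05 and 4.53 (-1.80 ± 0.17). Neither overlapped. The class I genes H2-T24 (-2.14), H2-T22 (-0.91) and H2-T3 (-0.82) were also higher in BXD87 and H2-M3 (0.33) was higher in BXD75. The H2-T22 call was lost without BXD75 line F or N. H2-K1, H2-D1 and H2-Ab1 gave -0.13, 0.17 and -0.24 without passing the test. These class I genes are near copies of each other, so how their reads were divided is uncertain.

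**Figure D5:**
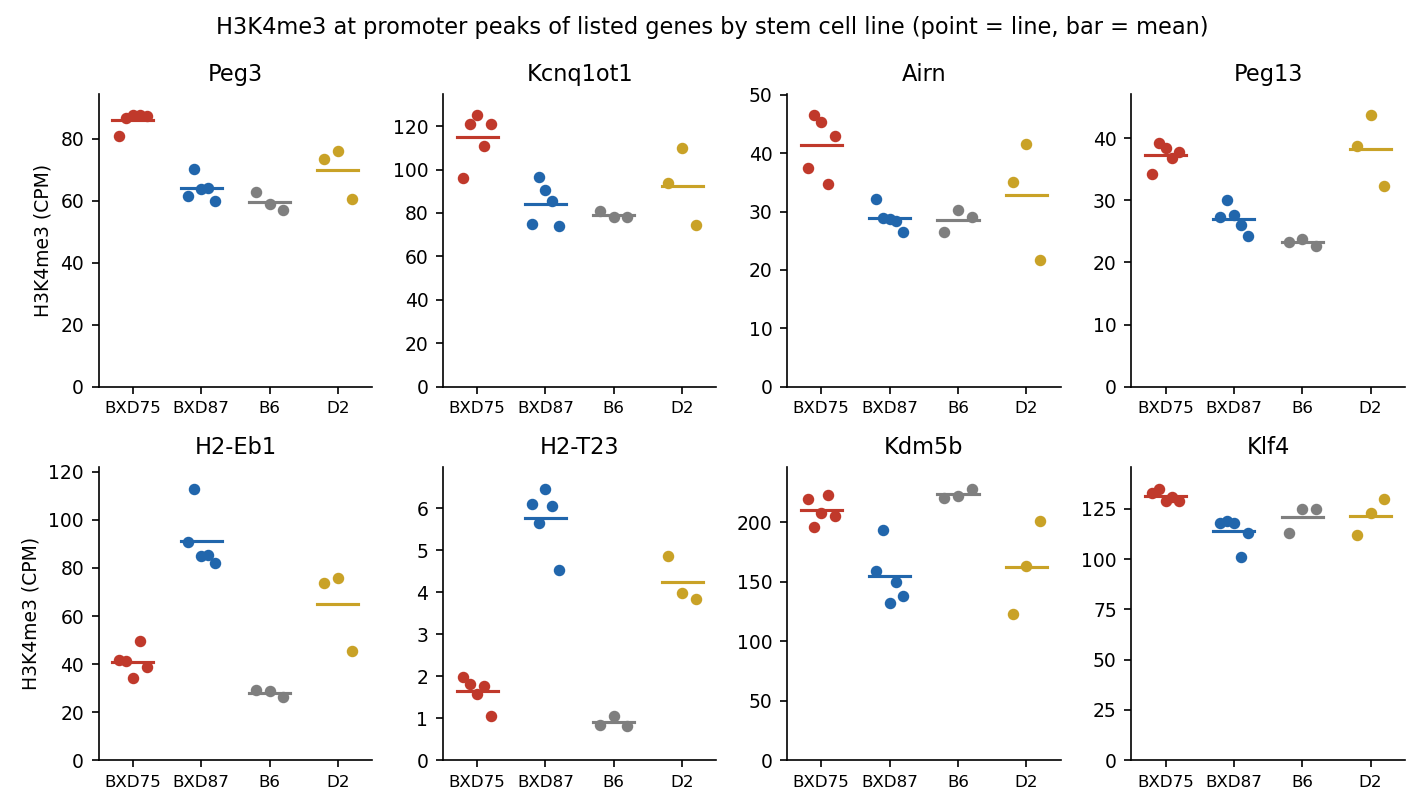
H3K4me3 level (CPM, vertical axis) at promoter peaks of imprinted genes (Peg3, Kcnq1ot1, Airn, Peg13), histocompatibility genes (H2-Eb1, H2-T23), Kdm5b and Klf4 in the stem cell lines of 4 strains; each point is a cell line and each bar a mean. The imprinted genes are higher in BXD75 by 0.43 to 0.52 on the log2 scale, and the histocompatibility genes are higher in BXD87.

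Among genes that read and write chromatin marks, 3 of 17 measured genes of the H3K4 methylation list were called and 2 of 12 DNA methylation genes, beside 14.5% of all promoter peaks. The 3 include Kdm2a, whose main mark is H3K36. Kdm5b, an H3K4 demethylase, held 219, 196, 208, 223 and 205 CPM in BXD75 and 159, 193, 132, 150 and 138 in BXD87 (log2 0.45 ± 0.11, edgeR adjusted p = 0.0052), and the groups came close at BXD87 line I without overlapping. Kdm2a, a CpG-binding demethylase of H3K36, differed by 0.25 and Rbbp5, a core subunit of the writer complexes, by -0.32, and neither call held throughout. The Kdm2a call was lost without any 1 of BXD75 lines A, F and Q and BXD87 lines C, K, M and X, and with a GC offset, and the Rbbp5 call without any 1 of BXD75 lines A, F, N and Y and BXD87 lines C and I, and with N and Y summed. Of the DNA methylation genes Dnmt3a, a de novo methyltransferase (48.6, 34.4, 27.0, 41.3 and 27.4 CPM against 19.2, 26.0, 23.1, 26.7 and 21.9, log2 0.61), and Tdg, which excises oxidised methylcytosine (0.31), were higher in BXD75. The Tdg call was lost with a GC offset for each library. None of 12 cofactors of KRAB silencing was called by edgeR or by DESeq2 in the fit of 4 strains, with 1 at an unadjusted p under 0.05. In the edgeR fit of the BXD75 and BXD87 libraries alone 1 was called, higher in BXD75, and 1 with a GC offset for each library. Trim28, the scaffold of that pathway, stood at 369 to 468 CPM in BXD75 and 373 to 508 in BXD87.

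Zinc finger genes named Zfp, many of which encode repeat-binding repressors, numbered 292, with 21 higher in BXD75, 9 higher in BXD87 and a median of 0.05, beside 14.5% of all promoter peaks called and their median of 0.06. Each gene was read at its strongest promoter peak, and of all promoter peaks at 41.4 CPM or more 10.2% were called. Zfp658 held 15.9, 14.9, 17.1, 17.0 and 17.3 CPM in BXD75 and 31.7, 35.2, 34.1, 30.9 and 33.1 in BXD87 (log2 -1.01 ± 0.09, edgeR adjusted p = 1.4e-08), with B6 at 32.6 to 33.9 and D2 at 14.1 to 19.4. Zfp872, Zfp575 and Zfp629 were higher in BXD75 by 0.90, 0.71 and 0.66. In a fit of the BXD75 and BXD87 libraries alone 35 were higher in BXD75 and 13 in BXD87. The number higher in BXD75 fell to 13 without BXD87 line C, M or X.

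Genes of other cell types and states were read beside the 14.5% of all promoter peaks called, and no test compared their counts with that share. Of 20 primed epiblast and lineage genes 1 was called, Sox7 (0.42), which also stands in the primitive endoderm list beside Lama1, a laminin chain (-0.38). Of 12 trophoblast genes Elf5, a trophoblast stem cell factor, was higher in BXD87 (6.69 against 10.6 CPM, log2 -0.67), and of 12 fibroblast genes that feeder cells express Fbln1 was higher in BXD75 (0.27). The Sox7 call was lost without any 1 of BXD75 lines A and F and BXD87 lines C, I, K and X, and with scaling to library size alone. The Fbln1 call was lost without any 1 of BXD75 lines A, F, Q and Y and BXD87 lines C, K and X. Of 17 housekeeping genes 1 was called, Pgk1 (0.32).

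Germline genes, which DNA methylation holds silent in somatic cells, were called in both directions, with 4 of 21 higher in BXD75 and 3 in BXD87, beside 14.5% of all promoter peaks called. Brdt, a testis bromodomain gene, differed by 0.78, Tuba3a by 0.68 and Ddx4, a germ cell helicase, by 0.87, the last at 2.37 against 1.31 CPM and lost without BXD75 lines A and Q together. Rec8, a meiotic cohesin, differed by -0.49 and Tex19.1 by -0.34. Of 17 interferon response genes 4 were higher in BXD75 and 1 in BXD87, and of 19 glutathione transferases 4 and 2, beside the same share. Mx2, an interferon-induced GTPase, held 8.65, 8.28, 8.75, 6.40 and 8.58 CPM against 1.60, 6.25, 2.64, 3.13 and 2.24 (log2 1.39 ± 0.30, edgeR adjusted p = 0.0016), with BXD87 line I just under BXD75 line Q. Ifit2 differed by 0.78, Gbp3 by 0.60 and Irf1 by 0.28, and Oas1a by -0.50. The Oas1a call was lost without any 1 of BXD75 lines F, N and Y and BXD87 lines I and M, with N and Y summed and with a GC offset, and the Gbp3 call without BXD87 line X and without BXD75 lines A and Q together. The interferon count fell from 5 to 3 without BXD75 line F or BXD87 line X. Of the glutathione transferases 4 were higher in BXD75, Gstm5 (0.63), Mgst1 (0.40), Gstt2 (0.31) and Gsta4 (0.27), and 2 in BXD87, Gsto1 (-0.74; 31.1 to 34.3 against 45.4 to 65.5 CPM) and Gstp2 (-0.36). The Mgst1 call was lost without any 1 of BXD75 lines A and N and BXD87 line K, and without A and Q together.

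On the X chromosome 221 of 1391 peaks (15.9%) were called, 116 higher in BXD75 and 105 in BXD87. X-linked peaks took 1.81%, 1.86%, 1.92%, 1.79% and 1.90% of the reads in BXD75 and 1.94%, 1.82%, 1.78%, 1.71% and 1.85% in BXD87, which overlap (1.86% ± 0.056 against 1.82% ± 0.083, SD, n = 5 each, exact two-sided permutation p = 0.42, smallest possible 0.0079). Nap1l3, a nucleosome assembly protein gene, held 13, 15.8, 15.3, 11.7 and 15.7 CPM in BXD75 and 2.01, 1.43, 2.04, 2.71 and 1.85 in BXD87 (log2 2.82), with B6 at 10.4 to 13.8 and D2 at 2.36 to 4.07. Tmsb15b2, a thymosin gene, differed by 1.04 and Usp26, a deubiquitinase gene, by 0.99. Rhox5, a homeobox gene of the reproductive cluster, differed by -1.07 (4.22 to 5.96 against 8.30 to 13 CPM), Tmem29 by -0.85 and Mir672 by -0.79, the last lost without BXD75 line F or BXD87 line C or I or without A and Q together. Tsix, the antisense of Xist, differed by -0.35, and reads of the 2 cannot be told apart where they overlap. The table holds 0 peaks on the Y chromosome, which was not analysed here.

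Chromosome 8 stood apart in a single library. On chromosome 8 the median peak of BXD87 line K lay 0.22 above the mean of all stem cell lines on the log2 scale, while the other BXD87 lines lay between -0.02 and 0.01. By the same measure BXD87 line M stood at -0.11 on chromosome X. Among founder lines the largest medians were 0.168 in D2 line 203 on chromosome 11 and -0.171 in D2 line 173 on chromosome X. Of the 737 chromosome 8 calls 260 were higher in BXD75 and 477 in BXD87 (64.7%, against 53.9% on the other autosomes). Without line K they were 283 and 353 (55.5%, against 55.3%). Adam32 lies on this chromosome, with 31.7 CPM in line K and 25.5 to 27.1 in the other BXD87 lines.

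Fewer peaks were called between the same strains in the other tissues, with fewer libraries. In hepatocytes 1425 of 29137 peaks (4.89%) were called between BXD75 and BXD87, with 9.0 to 14.7 M reads in peaks in BXD75 and 16.1 to 25.2 in BXD87. In cardiomyocytes 126 of 23809 (0.529%) were called, with 7.1 to 7.7 and 10.5 to 12.8 M reads. Both tissues had 3 libraries per strain against 5 in stem cells, and how far the lower counts go with fewer libraries was not tested. Of 9739 stem cell peaks matched to a hepatocyte peak at 50% reciprocal overlap, 1138 were called in stem cells, 306 in hepatocytes and 128 in both, 11.2% of the stem cell calls and 41.8% of the hepatocyte calls. Of those 128 peaks 94 had the same sign and 34 the opposite. In cardiomyocytes 27 were called in both, 2.18% of 1237 stem cell calls and 61.4% of 44 cardiomyocyte calls, with 24 of the same sign.

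A test of the difference itself called 450 of 9739 peaks (4.62%) for a strain difference that depends on stem cells against hepatocytes, 193 further toward BXD75 in stem cells and 257 further toward BXD87. Against cardiomyocytes 503 of 10666 (4.72%) were called, 230 and 273. These counts rest on single tissue libraries. Leaving out hepatocyte BXD75 replicate 3 gave 806 and BXD87 replicate 2 gave 299, and leaving out cardiomyocyte BXD75 replicate 2 gave 1768, BXD75 replicate 1 gave 235, BXD87 replicate 1 gave 257 and BXD87 replicate 3 gave 259.

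P2ry2, a receptor for extracellular ATP and UTP with 21 CpG in the window printed above, differed between the strains in stem cells and did not pass the test in hepatocytes. Stem cells held 53.5, 53.3, 48.3, 42.8 and 47.0 CPM in BXD75 and 15.5, 15.9, 15.7, 21.4 and 16.1 in BXD87 (log2 1.53 ± 0.12, edgeR adjusted p = 5e-09). Hepatocytes held 61.2, 50.6 and 53.0 CPM in BXD75 and 63.9, 63.0 and 59.8 in BXD87 (-0.18, edgeR adjusted p = 0.59), and the strain difference differed between the tissues by 1.65 ± 0.18 (adjusted p = 2.3e-07). Stem cell groups were fully separate.

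Scara5 was opposite in the 2 tissues. Stem cells held 2.29, 1.49, 1.79, 1.57 and 1.36 CPM in BXD75 and 6.65, 7.54, 6.96, 6.73 and 7.33 in BXD87, while hepatocytes held 17.7, 13.4 and 7.14 in BXD75 and 3.69, 3.34 and 3.91 in BXD87. The difference of the strain differences was -3.88 ± 0.30 (edgeR adjusted p = 2.1e-10). Alkal1, a ligand of the ALK and LTK receptors, was likewise opposite, with 0.40 in stem cells, -1.30 in hepatocytes and 1.64 between them. Eps8l1 was higher in BXD75 in both tissues, by 3.27 in stem cells and 1.61 in hepatocytes, and more so in stem cells (1.62, adjusted p = 0.0026).

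At 5 other promoters of this rule, Mtus2, Plekhb1, Mamdc2, Npffr2 and Rpl38-ps1, the strains differed in hepatocytes and not by the test in stem cells. Mtus2, a microtubule-associated protein gene, stood at 23.8 to 28.7 CPM in BXD75 stem cells and 21.9 to 27.6 in BXD87, and at 2.91 to 7.04 against 14.8 to 15.2 in hepatocytes (difference 1.85). Plekhb1 stood at 3.89 to 5.83 and 4.85 to 6.11 CPM in stem cells and at 14.0 to 20.9 against 3.98 to 4.42 in hepatocytes (-2.28). Mamdc2 gave -1.83, Npffr2, a neuropeptide receptor gene, -1.76 and the pseudogene Rpl38-ps1 -2.07. Ube2ql1, a ubiquitin-conjugating enzyme gene, was higher in BXD75 stem cells by 0.69 (edgeR adjusted p = 3.7e-05) and gave -0.94 in hepatocytes without passing the test (1.58 between them).

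Of the list members called in stem cells, Zfp658 differed in the same direction in hepatocytes (28.0 to 31.7 against 36.8 to 44.8 CPM, -0.43), by less than in stem cells (-0.64 between them, adjusted p = 1.6e-04). Dnmt3a (0.70), Ifit2 (0.77) and Peg13 (0.45) also differed between the tissues by the test and gave -0.14, -0.05 and -0.04 in hepatocytes. Airn and Peg3 gave -0.01 and 0.01 in hepatocytes, and the test of their difference between tissues did not pass (0.48 and 0.36, adjusted p = 0.26 and 0.17). Fggy was higher in BXD75 in cardiomyocytes as well, at 27.7 to 36.5 against 3.18 to 3.70 CPM (3.16).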

How the data were processed

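Chromatin was fragmented with MNase, immunoprecipitated for H3K4me3 and sequenced, with stem cell, hepatocyte and cardiomyocyte libraries made with the KAPA kit, per the labels' protocols. The values come from count tables deposited by the authors: whole-number read counts per peak, not normalised, with 1 column per library. The lists of peak positions deposited by the authors (unit: other, coordinates) use mm10 and a second genome of unstated build. CASAVA 1.8, BWA 0.5.10 and MACS 1.4.2 are listed, without role or order, by the submitters' processing notes. Whether peaks were called per sample or on pooled samples was not given in the sources used here. Input libraries were not used.

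Counts were tested with edgeR 4.0.16 in R 4.3.3 (filterByExpr, TMM scaling, robust quasi-likelihood F test, called at an adjusted p under 0.05), with the stem cell lines of 4 strains in 1 fit and repeat libraries of B6 line 49 and D2 line 203 summed per line. Levels are CPM on TMM-scaled library sizes, and a standard error is the log2 difference divided by the root of F. All 67192 stem cell peaks passed the filter on low counts. Promoters are peaks within 1 kb of a GENCODE M21 start site, and CpG and soft-masked bases were counted in the 1 kb around the peak centre. Bins of 5 Mb were typed B6-like above 0.5 and D2-like below -0.5 on a scale from D2 (-1) to B6 (1) with at least 3 hepatocyte markers. The fits were tested on simulated data, and DESeq2 1.42.0 was an alternative.

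Named genes were the 12 promoters in each direction with the largest fold among called autosomal promoters without overlap and with at least 5 CPM, 5 other peaks in each direction, up to 4 called members of each of 18 gene lists, 5 promoters in each direction in bins of the same founder type, 3 X-linked promoters in each direction and 5 in each direction whose strain difference depended most on tissue. A gene list takes 1 peak per gene, and a peak shared by members counts for each. The Y-linked list had 0 measured genes, and of 6 measured X inactivation genes 1 was called. The strains, gene lists and tests were chosen with earlier results of these data known.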

Additional observations from a re-analysis of the deposited data

Results flagged for a closer look

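Within groups of 5 stem cell lines 12 values lay apart from the other 4 of their group, among 224 groups checked, and chance alone flags about 1 in 20 groups, or 11.2 here. BXD87 line I gave 5 of them: Nod1 at 244 CPM (190 to 198 in the other lines), H2-Eb1 at 113 CPM (82.0 to 90.7), H2-T24 at 7.13 CPM (2.85 to 3.96), Oas1a at 32.4 CPM (17.5 to 19.9) and Kdm2a at 61.9 CPM (48.5 to 51.7). BXD87 line M stood apart at P2ry2 with 21.4 CPM (15.5 to 16.1) and at the peak nearest to Sox11 with 0.313 CPM (0.0516 to 0.0995). BXD87 line K stood apart at Adam32 with 31.7 CPM (25.5 to 27.1) and in its median over chromosome 8, with 0.22 on the log2 scale (-0.02 to 0.01). In BXD75 line A was low at Peg3 with 80.9 CPM (86.7 to 87.6), line N low at Tdg with 51.1 CPM (54.0 to 55.1) and line Q low at Mx2 with 6.40 CPM (8.28 to 8.75).

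The strain difference depended on the tissue, by the test of the stem cell minus hepatocyte difference, at 15 named promoters. It lay further toward BXD75 in stem cells at Mtus2 (log2 1.85), P2ry2 (1.65), Alkal1 (1.64), Eps8l1 (1.62), Ube2ql1 (1.58), Casp8 (1.56), Ifit2 (0.77), Dnmt3a (0.70) and Peg13 (0.45). It lay further toward BXD87 in stem cells at Scara5 (-3.88), Plekhb1 (-2.28), Rpl38-ps1 (-2.07), Mamdc2 (-1.83), Npffr2 (-1.76) and Zfp658 (-0.64).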

How the results depend on the processing

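The 14628 calls between BXD75 and BXD87 became 8911 with the peaks found on both genomes only and 3375 with an absolute log2 difference over 1. The first of these settings tested fewer peaks, 48090, of which 9219 were called in the main fit. They ranged from 11703 (without BXD75 line F) to 14773 when each cell line was left out in turn, and from 12747 to 17013 over the scaling, filter, DESeq2 and fit alternatives; summing N and Y, leaving out A and Q, and the GC offset were chosen after seeing the data. The founder calls became 31493 with libraries unsummed and 14707 to 23603 with a line left out. Leaving out 1 library gave 1064 to 1473 calls in hepatocytes, 299 to 806 for the difference from hepatocytes and 235 to 1768 for that from cardiomyocytes, and 0.0124 to 0.0683 percentage points for the X share difference. At 80% reciprocal overlap, which leaves fewer peaks, 114 and 160 peaks were called for the difference from hepatocytes and cardiomyocytes. The called share in bins of opposite founder type (32.2%) was 35.1% in 2 Mb bins, 29.4% in 10 Mb bins, 34.6% with at least 6 markers and 34.7% with class limits of 0.7, and that in bins of the same type (17.8%) was 19.4% in 2 Mb bins; the cause was not tested.

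No paired analysis was possible because the stem cell lines of the 2 strains share no letters. In the tissues same-numbered libraries deviated together, by a low limit on correlation, in 5 of 18 pairs in hepatocytes and 8 of 18 in cardiomyocytes. Between BXD75 and BXD87 the correlations for numbers 1, 2 and 3 were 0.564, -0.265 and 0.605 in hepatocytes. In cardiomyocytes they were -0.511, -0.635 and 0.65. With so few libraries these values cannot tell whether the numbers pair them. With a replicate block 1530 hepatocyte peaks were called, 525 for the difference from hepatocytes and 451 for that from cardiomyocytes. Of 1947 values of named genes under alternatives 1886 kept their side of the threshold, 61 in 12 genes lost it and 0 reversed.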
